A study of Zea mays with 8 samples.

Results

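In the starchy endosperm of the maize kernel, 200 genes were lower at 22 than at 18 days after pollination (DAP) by a fixed rule applied to the transcript levels of 4 libraries. Levels are TPM, a length-corrected share of all transcripts in a library. A gene qualified if it was above 0 TPM in all 4 libraries, and if its lower value at 18 DAP was at least 5 TPM and at least 1.5 times its higher value at 22 DAP. Of 39475 genes listed, 4855 reached 5 TPM in both libraries of 18 DAP, and 4202 of these were above 0 in all 4 libraries. The rule was met by 260 of the 4202 (6.19%), and the 200 with the highest lower value at 18 DAP were kept. The members were thus chosen by their TPM in the 4 starchy endosperm libraries, and their fall there is described without a test.

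The material came from greenhouse plants of the inbred line B73, which all groups share, with no treatment named. The 4 groups were starchy endosperm at 22 DAP, starchy endosperm at 18 DAP, aleurone at 22 DAP and aleurone at 18 DAP, each with 2 libraries labelled as biological replicates. Kernels were frozen, thawed and separated by mechanical peeling and rinsing, so that each tissue can carry some RNA of the other. The labels do not say whether the same plants gave both tissues or both ages.

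The starchy endosperm is the large inner storage tissue of the kernel, in which cells fill with starch and with zeins, the storage proteins of maize. Zeins are made on the rough endoplasmic reticulum, where chaperones fold them and where they collect in protein bodies. The aleurone is the outer cell layer of the endosperm; it stays alive at maturity, whereas the starchy endosperm cells die during late filling.

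Total counts ran from 2473036 to 11529170 per library. Replicate 2 was deeper than replicate 1 in every group but held fewer detected genes, and starchy endosperm at 22 DAP replicate 2 stood apart with 9335 genes with a count, against 16720 in replicate 1 of that group. Of the 4855 genes at the level of the rule, 646 were at 0 TPM in that library and 15 in replicate 1, with 8 at 0 in both, so that 653 genes could not enter the rule whatever their change. The tissue label was checked on 26 zeins found by name, whose share of a library's TPM in starchy endosperm was 60.7% and 62.8% for the 22 DAP libraries, against 59.1% and 61.0% for those of 18 DAP. Their share in aleurone was 14.1% and 14.7% at 22 DAP, against 11.7% and 11.98% at 18 DAP. The summed level of 14 aleurone markers in starchy endosperm was 61.5 and 67.5 TPM at 22 DAP, next to 64.8 and 61.3 TPM at 18 DAP, against 11588 to 39252 TPM in the 4 aleurone libraries. Within that sum, of the 4 markers at the level of the rule, vpp1, dek1 and Nkd1 were lower at 22 DAP without overlap and plt1 was higher, at 23.4 and 23.0 TPM, against 15.1 and 13.2 TPM at 18 DAP. Over all genes at that level, 24.2% were lower and 9.07% higher without overlap in starchy endosperm. Of the other kernel tissues, embryo markers reached at most 2.75 TPM in a starchy endosperm library. Basal transfer layer markers reached 0.19 TPM there, pericarp markers 0.32 and photosynthesis markers 0.50, and all 3 markers of the embryo surrounding region were at 0. The summed pericarp and embryo markers were higher in aleurone. Summed pericarp markers differed there by age without overlap, with 150.75 and 92.94 TPM in the 22 DAP libraries, against 38.95 and 28.44 TPM in the younger ones. That sum came from MADS4, zag2 and ZAG1 only, while the pericarp markers p1 and dfr1 were at 0 in all 8 libraries. Embryo markers overlapped, the older libraries having 261 and 1312 TPM and the younger ones 491 and 1794 TPM. Most of that sum was glb1, with 236 and 1268 TPM at 22 DAP and 470 and 1747 TPM at 18 DAP, and most of the rest was ocl1. The embryo marker lec1 was at 0 in all 8 libraries, and kn1 reached 0.34 TPM. Whether RNA of pericarp or embryo took part in the aleurone comparison of ages was not tested.

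Together the 200 genes summed to 3937 and 3579 TPM in the starchy endosperm at 22 DAP, against 9249.6 and 10432 TPM at 18 DAP. The mean level at 22 DAP was 37.3% of the mean at 18 DAP in the median gene, and it ran from 4.25% to 63.3%. The lower value at 18 DAP had a median of 16.4 TPM and ran from 7.05 to 963 TPM. By the ratio that the rule used, 64 genes differed at least 2 times, 21 at least 3 times, 8 at least 5 times and 2 at least 10 times. In bulk tissue, fewer cells of a type and less RNA per cell cannot be told apart.

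The fall was not even between both libraries of 22 DAP. The median gene stood at 44.5% of the 18 DAP mean in replicate 1 and at 31.0% in replicate 2, and 142 of the 200 genes were lower in replicate 2. In 17 genes the value in replicate 2 was more than 10 times below that in replicate 1, and in 1 gene the reverse held. How many of the other genes did so was not counted. The median of replicate 2 over replicate 1 at 22 DAP was 0.78 in the members, against 0.92 over all genes at the level of the rule. The counts behind the low end were small, with 16 genes under 10 expected counts in replicate 1 and 21 in replicate 2, and none under 10 at 18 DAP. RSEM's own interval of each value did not overlap between the ages for 138 of the 200. That count rests on the values that chose the members and was not taken over the other genes, so it does not bear on the fall.

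**Figure D1:**
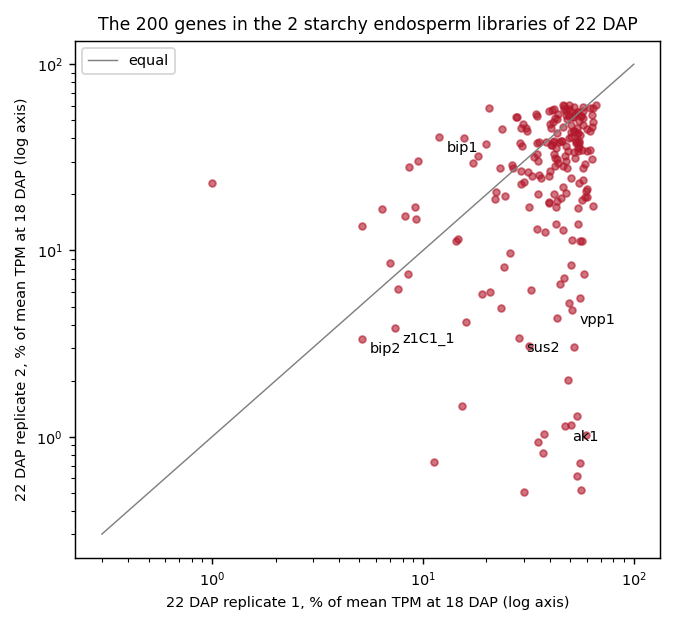
Each point is 1 of the 200 genes, with its TPM in starchy endosperm at 22 DAP as a percentage of its mean TPM at 18 DAP, in replicate 1 (x axis, log) and replicate 2 (y axis, log); the line marks equal values. Most points, 142 of 200, lie below the line, and a tail of genes such as ak1, vpp1 and sus2 was close to 0 in replicate 2 only.

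At the edges of the rule the values were close. Just inside the fold of 1.5, GRMZM5G867882 had 20.6 and 10.2 TPM at 22 DAP, against 31.0 and 34.5 TPM at 18 DAP, a ratio of 1.5034. GRMZM2G154312 and GRMZM2G056569 followed with ratios of 1.5045 and 1.5052. Just outside it, the ratio was 1.4986 for GRMZM2G084525, 1.4972 for AC213600.3_FG002 and 1.497 for GRMZM2G488067. The limit of 200 fell between GRMZM2G418604 at 7.05 TPM, after AC149829.2_FG006 and GRMZM2G125529, and GRMZM2G023387 and GRMZM2G130425 at 7.02 TPM, followed by GRMZM2G459063.

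Of the 200 genes, 164 were found in the reference table of names and 27 have a name there other than a number. The unnamed genes included most of the abundant ones. GRMZM2G012806, the highest, had 483 and 595 TPM at 22 DAP, against 963 and 1249 TPM at 18 DAP. AF546188.1_FG002 had 275 and 364 TPM at 22 DAP, against 637 and 561 TPM at 18 DAP. Both were still abundant after the fall, and both libraries of 22 DAP lay below both of 18 DAP, as the rule requires of every member. AC199315.4_FG001 had 179 and 283 TPM at 22 DAP, against 466 and 579 TPM at 18 DAP. GRMZM2G027392 had 220.3 and 203 TPM at 22 DAP, against 335 and 334 TPM at 18 DAP.

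**Figure D2:**
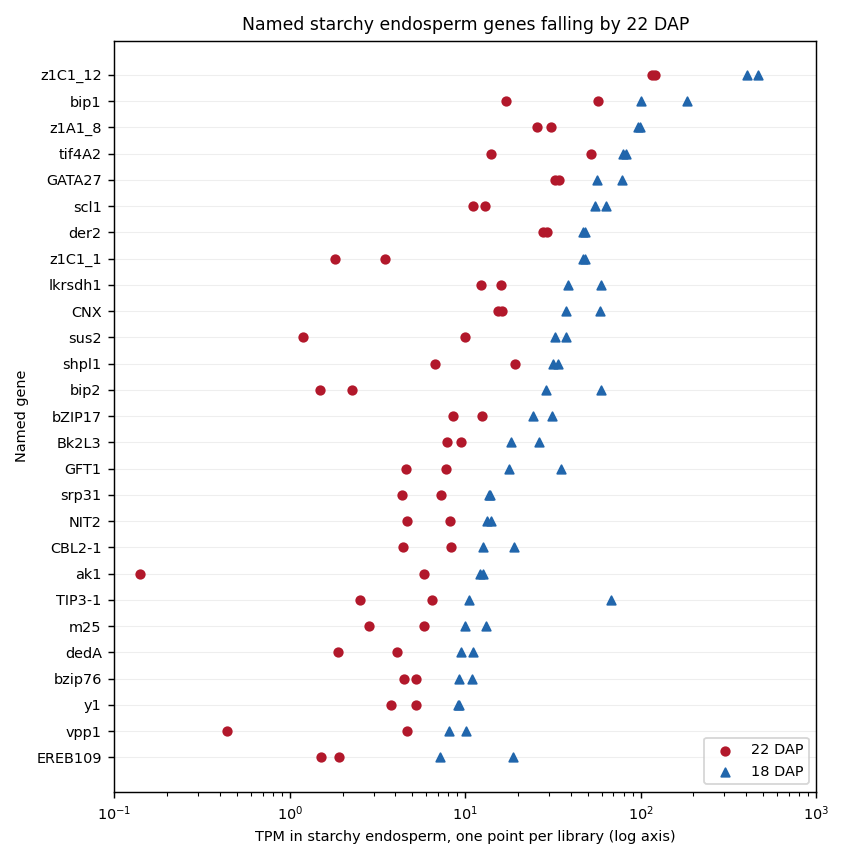
The 27 named genes are listed from the highest to the lowest level at 18 DAP, with the TPM in each starchy endosperm library of 22 DAP (circles) and 18 DAP (triangles) on a log axis. The ages are apart in every row because the rule asks for it; bip2 and z1C1_1 show the widest gap, and sus2, ak1 and vpp1 the widest spread between both libraries of 22 DAP.

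Of the 26 zeins found by name, 3 were among the members, all of them alpha-zeins, as are most of the 26 by their names. The list of zeins and other storage proteins held 27 genes at the level of the rule, with these 3 as its only members. Over all genes at that level, 6.19% met the rule. z1C1_12, also called az22z5, had 116 and 121 TPM at 22 DAP, against 403 and 465 TPM at 18 DAP. z1A1_8 had 30.8 and 25.7 TPM at 22 DAP, against 96.8 and 98.8 TPM at 18 DAP. These were minor members of a family whose main genes are far more abundant and did not meet the rule. z1C1_1 had 3.50 and 1.81 TPM at 22 DAP, against 48.1 and 46.7 TPM at 18 DAP, and its ratio of 13.3 was the largest among the 200. Fl2, a major alpha-zein of the z1C group, had 33219 and 39979 TPM at 22 DAP and 36662 and 43279 TPM at 18 DAP, and its ages overlapped. Alpha-zein genes are close copies of one another, so how RSEM divided shared reads among them bears on each single level.

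Besides AF546188.1_FG002, 3 more members carry IDs of the same sequenced clone and were named here after their values were seen. AF546188.1_FG001 had 139 and 52.6 TPM at 22 DAP, against 488 and 317 TPM at 18 DAP. AF546188.1_FG003 had 40.7 and 22.0 TPM at 22 DAP, against 144 and 112 TPM at 18 DAP. AF546188.1_FG006 had 29.9 and 42.0 TPM at 22 DAP, against 64.0 and 128 TPM at 18 DAP. Of the 2 most abundant genes of this clone, 1 was higher at 22 DAP without overlap: AF546188.1_FG005 had 88543 and 82904 TPM at 22 DAP, above its 77294 and 72157 TPM at 18 DAP. The ages of the other, AF546188.1_FG007, overlapped, with 71189 and 62242 TPM at 22 DAP and 65464 and 57673 TPM at 18 DAP. The reference table names none of these genes.

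Protein folding in the endoplasmic reticulum gave 5 named members, with bZIP17, a transcription factor, counted by its name only. bip1 and bip2 encode BiP, the main chaperone of this compartment. bip2 had 2.27 and 1.48 TPM at 22 DAP, against 29.0 and 59.3 TPM at 18 DAP, so that its mean at 22 DAP was 4.25% of that at 18 DAP, the lowest share among the 200. bip1 had 17.0 and 57.5 TPM at 22 DAP, against 101 and 184 TPM at 18 DAP. In bip1 the libraries of 22 DAP were over 3 times apart, with replicate 2 the higher. CNX, calnexin, which folds glycoproteins, had 16.1 and 15.3 TPM at 22 DAP, against 58.8 and 37.5 TPM at 18 DAP. der2, a derlin that takes part in removing misfolded proteins, had 29.4 and 27.8 TPM at 22 DAP, against 46.8 and 48.3 TPM at 18 DAP. bZIP17 shares its name with an Arabidopsis transcription factor of the endoplasmic reticulum stress response. It had 8.54 and 12.5 TPM at 22 DAP, against 31.0 and 24.3 TPM at 18 DAP.

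Not all folding genes met the rule. A list of 25 such genes, with bZIP17 included, was written after the values were known. It held 17 at the level of the rule, where 6.19% of all genes met the rule. The 5 above were the members among the 17. Nothing is read from that count, since the list and the rule both used these values. The list's median log2 change of 22 over 18 DAP was -0.64 with the members included, against -0.20 for all 4202 genes at that level. For the same reason, nothing is read from that median either. PDIL1-1, a protein disulfide isomerase that makes the disulfide bonds of storage proteins, had 314 and 429 TPM at 22 DAP and 431 and 625 TPM at 18 DAP, which missed the fold of 1.5. The other 8 genes at this level with PDIL names, shown in the plot of folding genes, overlapped between ages. PDIL2-3 had 18.4 and 0 TPM at 22 DAP and 77.0 and 70.7 TPM at 18 DAP, and was outside the rule only through the value of 0 in replicate 2.

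**Figure D3:**
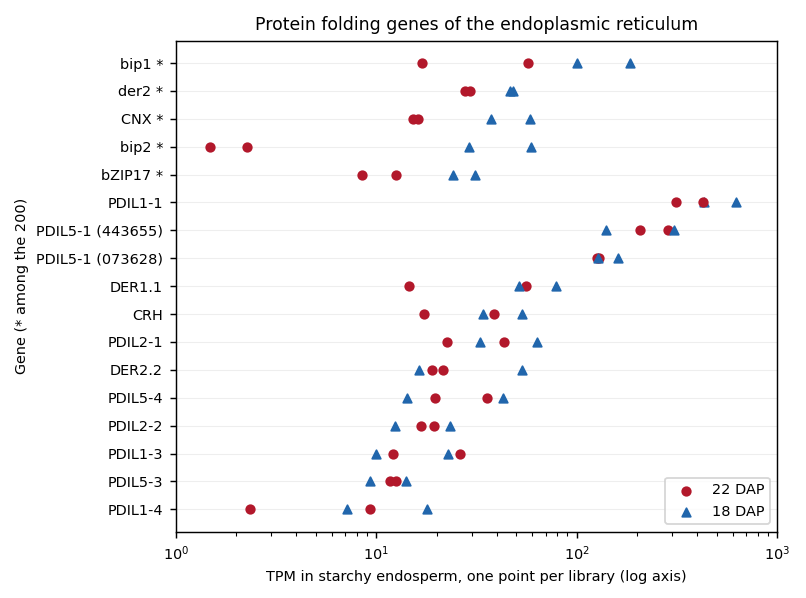
Shown are the 17 genes at the level of the rule from the list of protein folding genes, which includes the transcription factor bZIP17. Their TPM in each starchy endosperm library of 22 DAP (circles) and 18 DAP (triangles) is on a log axis, the 5 members first and starred. In the 5 members and in PDIL1-1 both values of 22 DAP lie below both of 18 DAP, and in the other 11 the ages overlap. Over all genes at that level, 24.2% were lower without overlap in starchy endosperm.

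Carbon and nitrogen metabolism was represented by sus2, lkrsdh1, ak1, NIT2 and y1. sus2 encodes a sucrose synthase, which opens the path from imported sucrose to starch, and had 9.97 and 1.19 TPM at 22 DAP, against 32.3 and 37.5 TPM at 18 DAP. The main sucrose synthase of the starchy endosperm, sh1, had 1028 and 1487 TPM at 22 DAP and 1695 and 2273 TPM at 18 DAP, apart but within the fold of 1.5. Of 13 genes of starch synthesis and sucrose use at the level of the rule, sus2 was the only member, a share near the 6.19% of all genes at that level that met the rule.

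lkrsdh1 encodes the bifunctional enzyme that breaks down lysine, and had 16 and 12.3 TPM at 22 DAP, against 59.2 and 38.6 TPM at 18 DAP. ak1 encodes an aspartate kinase at the entry to lysine synthesis, and had 5.81 and 0.14 TPM at 22 DAP, against 12.6 and 12.1 TPM at 18 DAP. The list of lysine and aspartate family genes held 4 genes, of which these 2 were at the level of the rule. NIT2, a nitrilase, had 8.18 and 4.66 TPM at 22 DAP, against 13.3 and 14.1 TPM at 18 DAP. y1 encodes phytoene synthase, the entry enzyme of the carotenoid pathway that colours yellow kernels, and had 3.77 and 5.22 TPM at 22 DAP, against 9.23 and 9.14 TPM at 18 DAP.

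Vacuolar membrane genes among the members were TIP3-1, a water channel, and vpp1, a proton-pumping pyrophosphatase. TIP3-1 had 2.50 and 6.47 TPM at 22 DAP, against 10.5 and 67.4 TPM at 18 DAP. vpp1 had 4.66 and 0.44 TPM at 22 DAP, against 10.2 and 8.12 TPM at 18 DAP. Both rest on wide spreads, in TIP3-1 at 18 DAP and in vpp1 at 22 DAP. vpp1 is also on the list of aleurone markers, and it had 497 and 358 TPM in aleurone at 22 DAP and 522 and 426 TPM at 18 DAP. Its starchy endosperm values were thus a small part of those in aleurone.

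Among genes of transcription, GATA27 had 32.3 and 34.1 TPM at 22 DAP, against 56.1 and 78.3 TPM at 18 DAP. bzip76 had 5.26 and 4.45 TPM at 22 DAP, against 9.23 and 11.0 TPM at 18 DAP. EREB109 had 1.91 and 1.5 TPM at 22 DAP, against 7.16 and 18.8 TPM at 18 DAP. By their names these belong to the GATA, bZIP and AP2/EREBP families. o2, the bZIP regulator Opaque-2, known to act on alpha-zein genes and on lkrsdh1, had 70.0 and 115 TPM at 22 DAP, against 149 and 255 TPM at 18 DAP. Its ages did not overlap, but the gap was under 1.5 times.

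tif4A2, an eIF4A helicase of translation initiation, had 51.9 and 14.0 TPM at 22 DAP, against 79.7 and 82.7 TPM at 18 DAP. Bk2L3, a COBRA-like gene of the brittle stalk family that acts in the cell wall, had 9.46 and 7.90 TPM at 22 DAP, against 26.3 and 18.2 TPM at 18 DAP. scl1 had 12.9 and 11.1 TPM at 22 DAP, against 63.3 and 54.7 TPM at 18 DAP, a ratio of 4.24 by the measure of the rule. The remaining named members, shpl1, GFT1, srp31, CBL2-1, m25 and dedA, lay between 1.88 and 19.1 TPM at 22 DAP, against 9.48 to 35.1 TPM at 18 DAP.

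By ratio, the leading genes after z1C1_1 and bip2 were unnamed. GRMZM2G176029 had 4.41 and 3.59 TPM at 22 DAP, against 71.7 and 44.1 TPM at 18 DAP. GRMZM2G093900 had 1.08 and 0.07 TPM at 22 DAP, against 8.54 and 10.6 TPM at 18 DAP. GRMZM2G141931 had 3.33 and 0.86 TPM at 22 DAP, against 19.9 and 21.6 TPM at 18 DAP.

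Only 77 of the 200 genes have a single transcript in the files. Of the other 123, the most abundant transcript was the same in all 4 starchy endosperm libraries in 59, varied between libraries of an age in 61, and differed between the ages in 3. The median gene length was 1519.5 bases, against 1480 bases over the 4202 genes, and 3 pairs of members lie next to each other or 2 genes apart in the reference table's order.

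The levels in aleurone were used nowhere in the rule. There the summed level of the 200 genes was 20680.0 and 17829.6 TPM at 22 DAP, next to 23763 and 20972 TPM at 18 DAP. At each age this sum of TPM was above that in the tissue in which they were chosen. TPM is a share, and the named zeins held 59.1% to 62.8% of it in starchy endosperm, against 11.7% to 14.7% in aleurone. All other genes thus divide a smaller remainder in starchy endosperm, and the part of this in the tissue comparisons below was not tested. The median log2 ratio of starchy endosperm over aleurone was -2.25 at 22 DAP and -1.04 at 18 DAP, against -1.66 and -1.54 over the 4202 genes at that level. At 18 DAP, when the members were at their height in starchy endosperm, both aleurone libraries exceeded both starchy endosperm libraries in 131 of the 200 (65.5%), against 76.9% of the genes at the same level, and the reverse held in 29 (14.5%), against 6.62%. At 22 DAP both aleurone libraries exceeded both starchy endosperm libraries in 157 (78.5%), near the 76.6% of the genes at the same level. The ratios use starchy endosperm values that chose the members and are a description.

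At the aleurone end of the range, vpp1, sus2 and lkrsdh1 stood lowest in the ratio at 18 DAP, with GRMZM2G311182 and GRMZM2G018820. sus2 had 681 and 601 TPM in aleurone at 22 DAP and 736 and 704 TPM at 18 DAP. lkrsdh1 had 358 and 238 TPM in aleurone at 22 DAP, against 824 and 605 TPM at 18 DAP. GRMZM2G018820 had 203 and 296 TPM in aleurone at 22 DAP, against 575 and 709.5 TPM at 18 DAP. In these genes the level in starchy endosperm was a small part of that in aleurone, and the part of aleurone RNA in their starchy endosperm values was not tested.

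At the other end stood GRMZM2G063733, GRMZM2G037411, GRMZM2G126302, GRMZM2G119322 and z1A1_8. GRMZM2G119322 had 7.38 and 5.75 TPM in starchy endosperm at 22 DAP, against 44.0 and 58.9 TPM at 18 DAP. In aleurone it was at 0 in both libraries of 22 DAP, against 3.92 and 6.22 TPM at 18 DAP. The 26 named zeins together stood in aleurone at 0.233 of their level in starchy endosperm at 22 DAP and at 0.197 at 18 DAP. Of the 200 genes, 2 were at or below that ratio at 22 DAP and 6 at 18 DAP, among them z1A1_8 at 18 DAP. How much of any aleurone level was RNA of the starchy endosperm was not tested.

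The question left to test was whether the members also changed in the aleurone, whose libraries the rule did not use. Both aleurone libraries of 22 DAP were below both of 18 DAP in 72 of the 200 genes (36.0%) and above both in 13 (6.5%), and the ages overlapped in 115. Over all 19058 genes tested, 18.5% were lower and 11.4% higher without overlap. Over the 4201 tested genes at the same starchy endosperm level, 12.2% were lower and 12.5% higher. The median fitted log2 change in aleurone was -0.18 for the members, against -0.01 for all tested genes and 0.11 for those at the same level, and the change was negative in 133 members (66.5%), against 50.6% and 40.4%. The counts of genes without overlap depended on single libraries, in the members and in the genes at the same level alike. Without aleurone at 22 DAP replicate 1, 134 members (67%) were lower and 24 (12%) higher, against 47.9% and 21.2% of the genes at the same level. Without aleurone at 18 DAP replicate 2, 132 (66%) were lower and 18 (9%) higher, against 40.7% and 20.3%. Without aleurone at 22 DAP replicate 2, 88 (44%) were lower and 44 (22%) higher, against 18.8% and 43.2%. Without aleurone at 18 DAP replicate 1, 85 (42.5%) were lower and 45 (22.5%) higher, against 19.4% and 37.4%. In each of these settings the share of members was above that of the genes at the same level for lower and below it for higher.

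No member passed the test in the aleurone. edgeR's quasi-likelihood test with Benjamini-Hochberg adjustment over 19058 genes called 0 members lower and 0 higher, and 0.0% of all genes in each direction. At an unadjusted p under 0.05 it listed 9 of the 200 members as lower and 2 as higher, against 0.367% and 0.661% of all 19058 genes. Shares by unadjusted p were not taken over the genes at the same starchy endosperm level. DESeq2 also called 0 members, with 17 at an unadjusted p under 0.05, against 1.51% of all genes, and a lowest adjusted p of 0.309; it called 3 of the 19058 genes (0.0157%). With 2 libraries per group, a missing call does not show an unchanged level. In simulated data few changes were recovered even at a size far above the fold of the rule. By the same rule that chose the members, applied to the aleurone, 20 were lower and 3 higher, against 1.81% and 1.52% of the genes at the same starchy endosperm level.

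**Figure D4:**
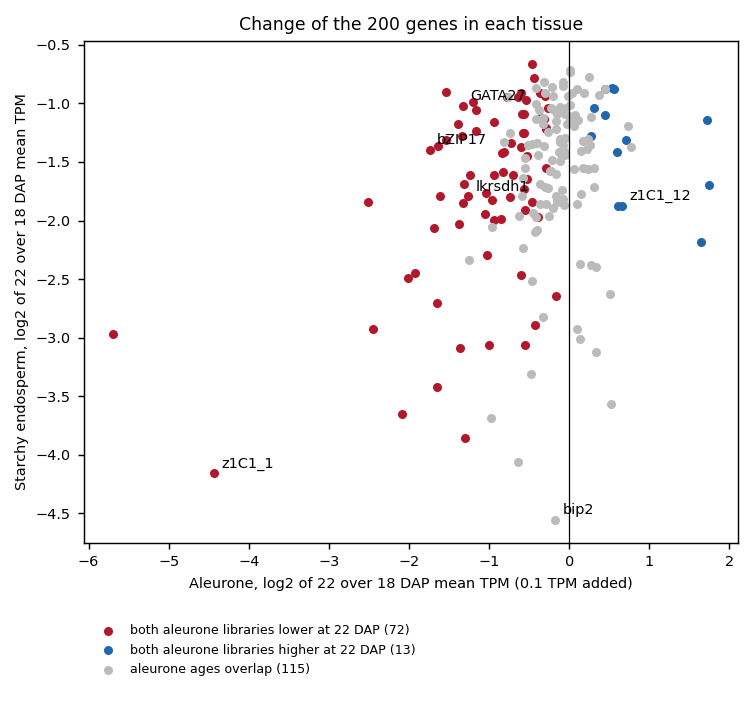
Each point is 1 of the 200 genes, with its log2 ratio of mean TPM at 22 over 18 DAP in aleurone (x axis) and in starchy endosperm (y axis, negative for all by the rule). Red points are the 72 genes lower in both aleurone libraries of 22 DAP, blue points the 13 higher in both, and grey points the 115 that overlapped.

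bZIP17 showed the lowest unadjusted p among the named members in the aleurone. It had 63.8 and 38.2 TPM in aleurone at 22 DAP, against 186 and 156 TPM at 18 DAP. Its log2 fold change was -1.55 (SE 0.43, unadjusted p = 0.0063, edgeR adjusted p = 1), and the aleurone ages did not overlap, as in starchy endosperm. GATA27 had 25.2 and 8.67 TPM in aleurone at 22 DAP, against 37.5 and 47.6 TPM at 18 DAP. scl1 had 103 and 89.6 TPM in aleurone at 22 DAP, against 225 and 169 TPM at 18 DAP. Both were lower without overlap and neither was called. z1C1_1 had 6.07 and 0 TPM in aleurone at 22 DAP, against 75.7 and 59.8 TPM at 18 DAP, a low level in both tissues at 22 DAP. CNX was also lower without overlap in aleurone, with 166 and 100.3 TPM at 22 DAP and 262 and 172 TPM at 18 DAP.

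Of the 27 named members, 9 were lower without overlap in aleurone at 22 DAP, 2 were higher and 16 overlapped. Over all 200 members the shares were 36.0% lower and 6.5% higher, against 12.2% and 12.5% of the genes at the same level. Besides those above, lkrsdh1, sus2, srp31 and NIT2 were among the 9 lower named members. srp31 had 57.4 and 37.0 TPM in aleurone at 22 DAP, against 63.8 and 75.7 TPM at 18 DAP. The 2 higher ones were z1C1_12 and m25, which had 5.72 and 7.88 TPM in aleurone at 22 DAP, against 3.90 and 5.03 TPM at 18 DAP. Among those that overlapped, tif4A2 had 186 and 154 TPM in aleurone at 22 DAP and 174 and 195 TPM at 18 DAP. TIP3-1 had 134 and 520.1 TPM in aleurone at 22 DAP and 139.5 and 379 TPM at 18 DAP, its replicates being further apart than its ages. y1 had 5.06 and 2.25 TPM in aleurone at 22 DAP and 5.84 and 2.10 TPM at 18 DAP, so that at 18 DAP it was higher in starchy endosperm than in aleurone.

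The BiP genes overlapped as well. bip2 had 38.6 and 57.6 TPM in aleurone at 22 DAP and 46.8 and 62.1 TPM at 18 DAP, with a log2 fold change of -0.02 (SE 0.58, edgeR adjusted p = 1). bip1 had 97.0 and 129.98 TPM at 22 DAP and 117 and 194 TPM at 18 DAP. Both thus overlapped between the ages in aleurone, while in starchy endosperm they were apart. Whether their change differed between the tissues was not tested, since the starchy endosperm values chose the genes.

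z1C1_12 went the other way in aleurone, with 1566 and 1693 TPM at 22 DAP, above its 1031 and 1038 TPM at 18 DAP. Its log2 fold change was 0.80 (SE 0.36, edgeR adjusted p = 1). The share of the named zeins in aleurone was also higher at 22 DAP, at 14.1% and 14.7%, against 11.7% and 11.98% at 18 DAP, and the part of this in the higher level of z1C1_12 was not tested. At both ages the TPM of this zein was higher in aleurone than in starchy endosperm, unlike that of the summed zeins. The tissues differ in the share of TPM that zeins take, and the part of this in the comparison was not tested. GRMZM2G116538 had 117 and 54.4 TPM in aleurone at 22 DAP, against 33.6 and 17.7 TPM at 18 DAP. GRMZM2G116881 had 28.1 and 31.1 TPM in aleurone at 22 DAP, against 12.1 and 5.67 TPM at 18 DAP.

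**Figure D5:**
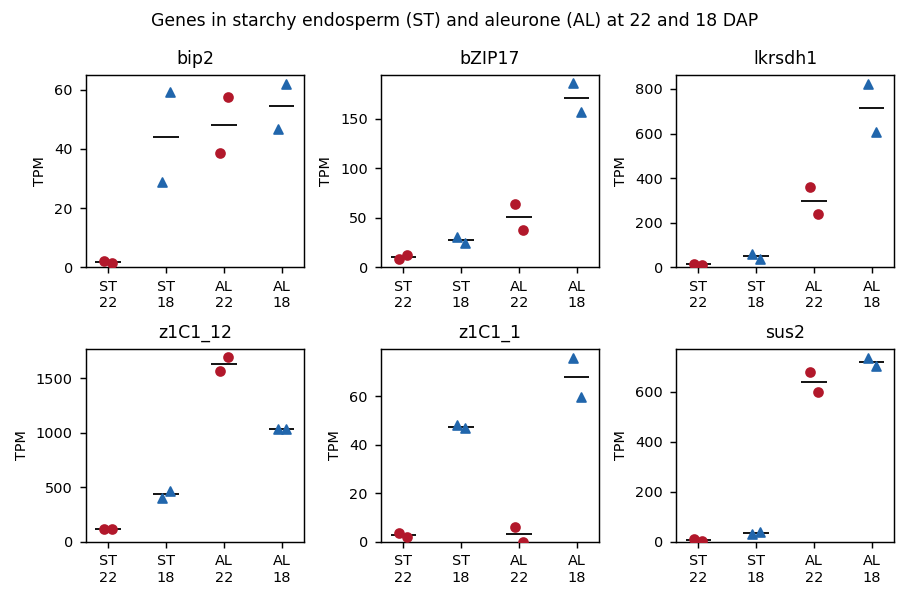
TPM of 6 members in the 4 groups, 1 point per library (circles 22 DAP, triangles 18 DAP) with the group mean as a bar; axes start at 0 and differ between panels. bZIP17, lkrsdh1, z1C1_1 and sus2 were lower at 22 DAP in both tissues without overlap, bip2 in starchy endosperm with overlap in aleurone, and z1C1_12 was lower in starchy endosperm and higher in aleurone.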

How the data were processed

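RNA was sequenced from 8 libraries in 4 groups of 2. Per the submitters' processing notes, the tools were FastQC, Bowtie2 2.2.3, SAMtools and RSEM 1.2.15, with the build B73 RefGen_v3. Strandedness was not given in the sources used here, nor was the annotation. The authors' tables hold, per the file headers, expected counts (estimated reads per gene, unscaled) and TPM (from effective lengths). TPM is a share, so a change in abundant zeins moves every other value.

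Members were found on TPM. Expected counts were rounded and fitted in edgeR 4.0.16 (R 4.3.3): 4 group means over 8 libraries, TMM scaling, filterByExpr, and the contrast of aleurone at 22 against 18 DAP. All 200 members were kept by the filter, and genes were called at adjusted p under 0.05. DESeq2 1.42.0 was an alternative. Log2 TPM ratios had 0.1 TPM added. P-values measure the spread between these libraries, whose separate origin the labels give only as biological replicates. Total counts of 2473036 to 11529170 set the precision. The script was tested on simulated data; it recovered few moderate changes, and larger ones were added to that test once this was seen, so power for moderate changes is low.

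Names came from a RefSeq table of Zm-B73-REFERENCE-NAM-5.0, matched by symbol or synonym, without coordinates. It holds no descriptions, so lists by description could not be used as planned, and the lists of folding, sucrose, lysine, cell wall, pyrophosphatase and carotenoid genes were written after values were seen. The members and lists were chosen with earlier results of these data known. Genes were named by rank in level or ratio, by lists, and at the extremes of the tissue ratio; all 27 members with a name were then described. Promoter and protein sequences were not used here.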

Additional observations from a re-analysis of the deposited data

Results flagged for a closer look

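In 13 members (6.5%) both aleurone libraries of 22 DAP were above both of 18 DAP, while both starchy endosperm libraries were below. Of all genes at the same starchy endosperm level, 12.5% were higher in aleurone in this way, and edgeR called none of the 13 in aleurone (adjusted p = 1), with 2 of them, GRMZM2G116538 and GRMZM2G116881, at an unadjusted p under 0.05. The difference between the tissues was not tested in any of them, and the starchy endosperm direction was fixed by the choice of members. The mean aleurone level at 22 DAP minus that at 18 DAP was 927 TPM for GRMZM2G012806 and 595 TPM for z1C1_12, which were the largest of the 13. It was 60.2 TPM for GRMZM2G116538, 55.4 TPM for GRMZM2G117984 and 20.7 TPM for GRMZM2G116881. It was 17.0 TPM for GRMZM2G167262, 13.6 TPM for GRMZM2G161611, 12.9 TPM for GRMZM2G069208 and 11.3 TPM for GRMZM2G111390. It was 9.65 TPM for GRMZM2G125308, 4.95 TPM for GRMZM2G069922, 3.10 TPM for GRMZM2G037411 and 2.33 TPM for m25.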

How the results depend on the processing

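The number of genes that met the rule, 260, was 81 with a fold of 2 and 152 with a level of at least 10 TPM, both by construction. It was 303 when TPM was recomputed without the named zeins and 332 when TPM was scaled by TMM factors. Of the 200 genes, 170 and 179 still met the rule, and der2 and tif4A2 did not under TMM scaling. The abundant unnamed genes AF546188.1_FG005 and AF546188.1_FG007 stayed in the recomputed TPM. Leaving out 1 starchy endosperm library gave 728 to 1245 genes, since fewer values then had to agree. The median log2 ratio of starchy endosperm over aleurone at 22 DAP was -2.07 with 1 TPM added. The count of members called in aleurone was 0 in all alternatives run. The median aleurone log2 change was -0.19 with a replicate block, and -0.26 to -0.17 with 1 library left out; a lone library was then assumed to vary like the other groups. Same-numbered libraries correlated in their deviations, at 0.19 to 0.41 over the 6 pairs of groups, but share only a number by the labels. In counts added after the data were seen, members lower in both aleurone libraries of 22 DAP numbered 85 to 134 (42.5% to 67%), and those higher 18 to 45 (9% to 22.5%), with 1 aleurone library left out; of the genes at the same level, 18.8% to 47.9% were then lower and 20.3% to 43.2% higher.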
